A study of Homo sapiens with 16 samples.

Results

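The 9 inflammatory chemokines CCL2, CCL3, CCL4, CCL5, CCL20, CCL23, CXCL1, CXCL2 and IL8 were followed in the human acute myeloid leukaemia cell line OCI-AML2 after knockdown of PNPase or of SUV3. They were taken by name from the 594 genes of an nCounter immunology panel, in which barcoded probes that bind each RNA are counted. PNPase, a ribonuclease, and SUV3, a helicase, break down RNA inside mitochondria. PNPase knockdown had replicates 545 and 1717 and SUV3 knockdown replicates 1595 and 1727, each sampled on days 3, 4, 5 and 6, which gave 16 samples in 8 groups of 2. All cells were grown in serum-containing medium and carried transduced shRNA, a short RNA that silences its target. The design text calls the replicates biological. What the replicate numbers stand for, and so whether the replicates differ in their hairpin, is not stated in the labels, and control cells were not analysed here.

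Chemokines are small secreted proteins that draw leukocytes along a gradient by binding receptors coupled to G proteins. IL8, now named CXCL8, and CXCL1 and CXCL2 attract neutrophils, mainly through CXCR2. CCL3, CCL4 and CCL5 attract monocytes and T cells, CCL20 binds CCR6, CCL2 draws monocytes through CCR2, and CCL23 binds CCR1. Monocytic cells make many of them when NF-kappaB and AP-1 are activated, and their transcripts are often short-lived. The genes of IL8, CXCL1 and CXCL2 lie on chromosome 4, that of CCL20 on chromosome 2 and those of the other members on chromosome 17, where CCL3 and CCL4 are neighbours. CCL3 and CCL4 have near-identical gene copies, and whether their probes tell the copies apart is not stated, so the values of both are uncertain in this respect.

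The stretches just upstream of 5 members are shown because 4 of them match a motif of NF-kappaB or AP-1, and because CCL3, which had the largest change below, matches none of those searched. Each runs over the 250 bases before the start of the gene, 5′ to 3′ on the strand of the gene, as RefSeq gives it in GRCh38.p14. Upstream sequences were matched for 6 of the 9 members, and those of CCL2, CCL4 and CCL5 were not used here. Capitals mark matches on either strand to GGAATTTCC, to the kappaB consensus, which can overlap it, or to the AP-1 motif TGANTCA.
IL8 (chr4:73740319-73740568, plus strand): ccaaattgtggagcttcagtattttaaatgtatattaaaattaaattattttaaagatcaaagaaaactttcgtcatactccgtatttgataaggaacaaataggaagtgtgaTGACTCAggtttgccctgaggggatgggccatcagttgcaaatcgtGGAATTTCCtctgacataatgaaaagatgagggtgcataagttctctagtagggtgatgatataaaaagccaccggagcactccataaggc
CXCL1 (chr4:73869143-73869392, plus strand): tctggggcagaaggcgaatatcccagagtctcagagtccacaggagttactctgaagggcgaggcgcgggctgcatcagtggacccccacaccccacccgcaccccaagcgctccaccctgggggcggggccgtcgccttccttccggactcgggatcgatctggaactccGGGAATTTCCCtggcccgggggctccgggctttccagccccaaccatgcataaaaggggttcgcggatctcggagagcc
CXCL2 (chr4:74099196-74099445, minus strand): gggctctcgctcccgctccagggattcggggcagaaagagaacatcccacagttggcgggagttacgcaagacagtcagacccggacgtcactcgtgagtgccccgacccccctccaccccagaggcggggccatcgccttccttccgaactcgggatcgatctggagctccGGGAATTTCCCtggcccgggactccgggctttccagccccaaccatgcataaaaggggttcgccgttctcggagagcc
CCL20 (chr2:227813592-227813841, plus strand): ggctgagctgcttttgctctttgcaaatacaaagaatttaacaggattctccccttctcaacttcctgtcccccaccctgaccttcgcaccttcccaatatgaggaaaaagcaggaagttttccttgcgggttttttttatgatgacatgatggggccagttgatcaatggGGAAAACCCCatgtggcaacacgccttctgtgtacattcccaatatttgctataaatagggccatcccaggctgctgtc
CCL3 (chr17:36090144-36090393, minus strand): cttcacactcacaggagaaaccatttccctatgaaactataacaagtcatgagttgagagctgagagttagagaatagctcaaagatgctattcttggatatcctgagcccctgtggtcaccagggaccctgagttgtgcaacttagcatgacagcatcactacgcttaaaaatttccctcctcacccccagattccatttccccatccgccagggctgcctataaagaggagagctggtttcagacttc
IL8, CXCL1 and CXCL2 each held GGAATTTCC, which 0.413% of 35097 RefSeq windows of the same length hold. The kappaB consensus matched in CXCL1, CXCL2 and CCL20 and in 9.95% of windows. TGANTCA matched in IL8 and in 6.57% of windows. The windows of CXCL1 and CXCL2 shared a run of 42 bases. CCL23, the sixth of these members, had none of these matches.

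The deposited values are whole numbers. The 8 negative control probes, which match no human RNA, averaged 6.80 with an SD of 3.05 and reached 17 at most, so a value was called above them from the mean plus 2 SD, 12.9. For comparisons each sample was divided by the factor common to the 15 housekeeping genes and log2(value + 1) was taken, which is called the scaled log2 value here. Totals over all genes ran from 311396 to 493370. The housekeeping factor ran from -0.51 to -0.10 on day 3 and from -0.01 to 0.51 on day 6 on the log2 scale, so it moved with the days. PNPT1 and SUPV3L1, which encode PNPase and SUV3, were not among the genes analysed here. Of 8 listed markers of the line 4 were measured, and CD14 had deposited values of 10 to 60, ITGAM of 10 to 37 and HLA-DRA of 30 to 241. Of 10 T and NK cell markers 3 lay above the negative controls on average, among them CD4 and NCAM1, and CD3E reached 13 at most.

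Of the 144 chemokine values, 119 lay above the negative controls. IL8, CXCL1, CXCL2, CCL2 and CCL5 did so in all 16 samples. CCL3, CCL4 and CCL20 lay above the limit most often on day 3. CCL3 lay above the limit in 4 of 4 samples on day 3, 2 on day 4, 2 on day 5 and 3 on day 6. CCL4 did so in 4 samples on day 3, 2 on day 4, 1 on day 5 and 1 on day 6. CCL20 did so in 3 samples on day 3, 1 on day 4, 0 on day 5 and 1 on day 6. The CCL3 and CCL4 values above the limit on day 6 were only 13 or 14. They lay within the range of the negative control probes, and none passed a limit of the mean plus 3 SD. CCL23 was below the limit in 1 sample only, PNPase replicate 1717 on day 3. Of 19 other chemokines measured, 0 lay above the limit on average. The highest mean deposited values among them were 11.4 for CXCL12, 11.2 for CCL13 and 9.69 for CCL22.

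**Figure D1:**
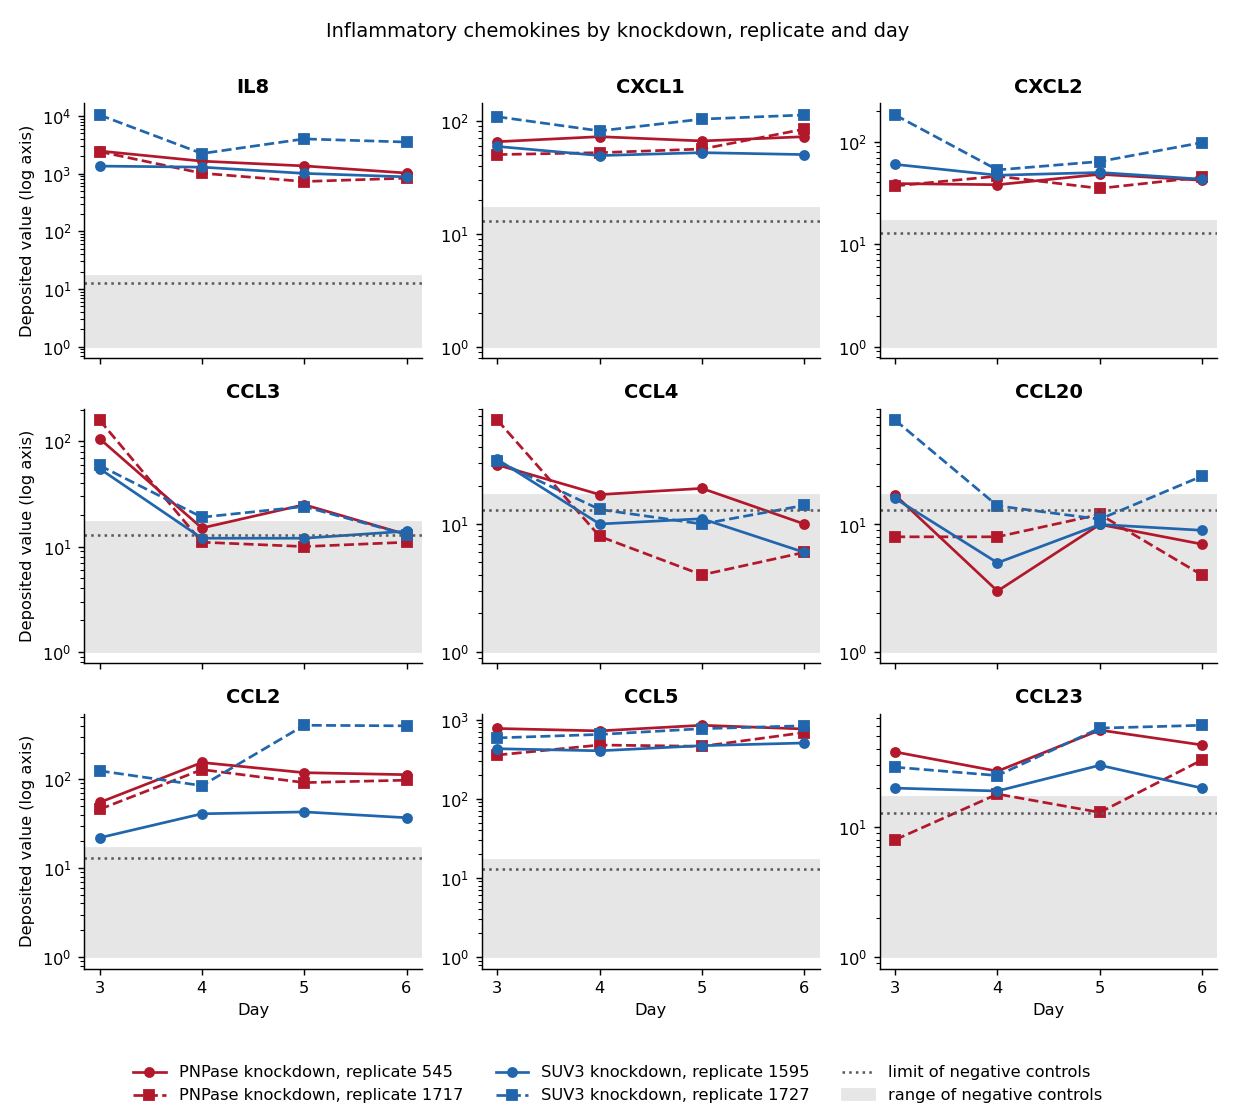
Deposited values of the 9 chemokines (log axis) by day, a line per replicate, with the limit of 12.9 dotted and the range of the negative control probes up to 17 shaded (values of 0 cannot be drawn). CCL3 and CCL4 lie above the shaded range on day 3 and at 25 or below on later days, CCL20 exceeds it only in SUV3 replicate 1727 on days 3 and 6, and IL8, CXCL1, CXCL2, CCL2 and CCL5 stay above it throughout.

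The next comparison asked how the chemokines changed after day 3. After PNPase knockdown CCL3, CCL4 and IL8 fell, and after SUV3 knockdown CCL3, CCL20 and CXCL2 fell, each judged over all 594 genes. CCL3 was a called member in both. CCL2 had higher and CCL23 nearly equal mean values on the later days, and neither passed the test with housekeeping scaling. In these bulk samples fewer cells with a transcript and less of it per cell cannot be told apart.

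CCL3, a ligand of CCR1, had deposited values of 106, 15, 25 and 13 on days 3, 4, 5 and 6 in PNPase replicate 545 and of 159, 11, 10 and 11 in replicate 1717. In SUV3 replicate 1595 they were 55, 12, 12 and 14, and in replicate 1727 they were 59, 19, 24 and 13. Every day 3 sample lay above every later sample, and the day 3 values of the PNPase replicates lay above those of the SUV3 replicates. The scaled log2 change, days 4 to 6 minus day 3, was -3.76 ± 0.40 (SE) after PNPase knockdown (limma adjusted p = 0.00198) and -2.15 ± 0.40 (SE) after SUV3 knockdown (limma adjusted p = 0.0219). Later values in the range of the negative controls make these sizes uncertain. With such values set at the limit, day 3 was at least 22.8-fold higher than the later days in PNPase replicate 1717 and at least 5.42-fold higher in SUV3 replicate 1595. In PNPase replicate 545 and SUV3 replicate 1727 all values were above the limit, and day 3 was 7.92-fold and 3.82-fold higher.

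CCL4, the neighbour of CCL3 on chromosome 17, had deposited values of 29, 17, 19 and 10 on days 3 to 6 in PNPase replicate 545 and of 65, 8, 4 and 6 in replicate 1717. They were 32, 10, 11 and 6 in SUV3 replicate 1595 and 31, 13, 10 and 14 in replicate 1727. Day 3 was again above every later sample, and PNPase replicate 1717 had both the highest and the lowest value. The change was -2.67 ± 0.58 (SE) after PNPase knockdown (limma adjusted p = 0.0321). After SUV3 knockdown it was -1.82 ± 0.58 (SE; limma adjusted p = 0.124), which did not pass. Day 3 was at least 2.28-fold and 9.31-fold higher in PNPase replicates 545 and 1717, and at least 3.24-fold and 2.73-fold higher in SUV3 replicates 1595 and 1727.

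IL8 had deposited values of 2474, 1650, 1364 and 1026 on days 3 to 6 in PNPase replicate 545 and of 2414, 1019, 732 and 837 in replicate 1717. They were 1355, 1299, 1012 and 881 in SUV3 replicate 1595 and 10431, 2238, 4012 and 3538 in replicate 1727. Each replicate was highest on day 3, and SUV3 replicate 1727 stood above the other replicates on every day. After PNPase knockdown IL8 was 3.52-fold lower on the later days, a scaled log2 change of -1.81 ± 0.39 (SE; limma adjusted p = 0.0292). After SUV3 knockdown the change was -1.35 ± 0.39 (SE; limma adjusted p = 0.0889), which did not pass. The courses differed in shape between replicates. From day 3 to day 4 the scaled log2 value changed by -0.67 and -2.01 in PNPase replicates 545 and 1717, and by -0.24 and -2.30 in SUV3 replicates 1595 and 1727. From day 4 to day 6 it changed by -1.12, -0.54, -0.87 and 0.37 in the same order.

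CCL20, which attracts CCR6-bearing lymphocytes and dendritic cells, had deposited values of 17, 3, 10 and 7 on days 3 to 6 in PNPase replicate 545 and of 8, 8, 12 and 4 in replicate 1717. They were 16, 5, 10 and 9 in SUV3 replicate 1595 and 66, 14, 11 and 24 in replicate 1727. Only the day 3 value of SUV3 replicate 1727 stood far above the negative controls, where day 3 was at least 4.74-fold higher than the later days. The change was -1.80 ± 0.38 (SE; limma adjusted p = 0.036) after SUV3 knockdown and -1.27 ± 0.38 (SE; limma adjusted p = 0.0789) after PNPase knockdown.

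CXCL2 had deposited values of 39, 38, 48 and 42 on days 3 to 6 in PNPase replicate 545 and of 37, 46, 35 and 45 in replicate 1717. They were 60, 47, 50 and 43 in SUV3 replicate 1595 and 182, 53, 64 and 98 in replicate 1727. The deposited values after PNPase knockdown were thus almost level, and the day 3 value of SUV3 replicate 1727 was far above all others. After SUV3 knockdown the later days were 2.26-fold lower, a scaled log2 change of -1.17 ± 0.26 (SE; limma adjusted p = 0.041). After PNPase knockdown the change was -0.45 ± 0.26 (SE), which did not pass and had the other sign without scaling, at 0.14. CXCL1, its near relative, held 50 to 84 in the PNPase samples and 49 to 112 in the SUV3 samples. Its changes of -0.39 ± 0.19 (SE) and -0.49 ± 0.19 (SE) did not pass, and that after PNPase knockdown was 0.21 without scaling.

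The remaining members did not fall after day 3 by this test. CCL2, the monocyte attractant, had deposited values of 55, 155, 119 and 113 on days 3 to 6 in PNPase replicate 545 and of 46, 129, 92 and 98 in replicate 1717. They were 22, 41, 43 and 37 in SUV3 replicate 1595 and 125, 85, 407 and 401 in replicate 1727. Day 3 was the lowest day in both PNPase replicates and in SUV3 replicate 1595, whereas SUV3 replicate 1727 was lowest on day 4. The changes were 0.58 ± 0.42 (SE) after PNPase knockdown and 0.59 ± 0.42 (SE) after SUV3 knockdown. The change after PNPase knockdown passed as higher without scaling, at 1.19 (limma adjusted p = 0.0483), and scaled to the spiked controls, at 1.27 (limma adjusted p = 0.0336), but not scaled to the total, at 0.82 (limma adjusted p = 0.204). CCL5, which draws T cells and monocytes, held 357 to 849 in the PNPase samples and 404 to 837 in the SUV3 samples. Its changes were -0.32 ± 0.16 (SE) and -0.086 ± 0.16 (SE), both within the shift that the choice of scaling makes. CCL23 changed by 0.071 ± 0.35 (SE) after PNPase and 0.088 ± 0.35 (SE) after SUV3 knockdown. With SUV3 replicate 1727 left out its change after SUV3 knockdown was -0.21, and with PNPase replicate 1717 left out that after PNPase knockdown was -0.25.

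**Figure D2:**
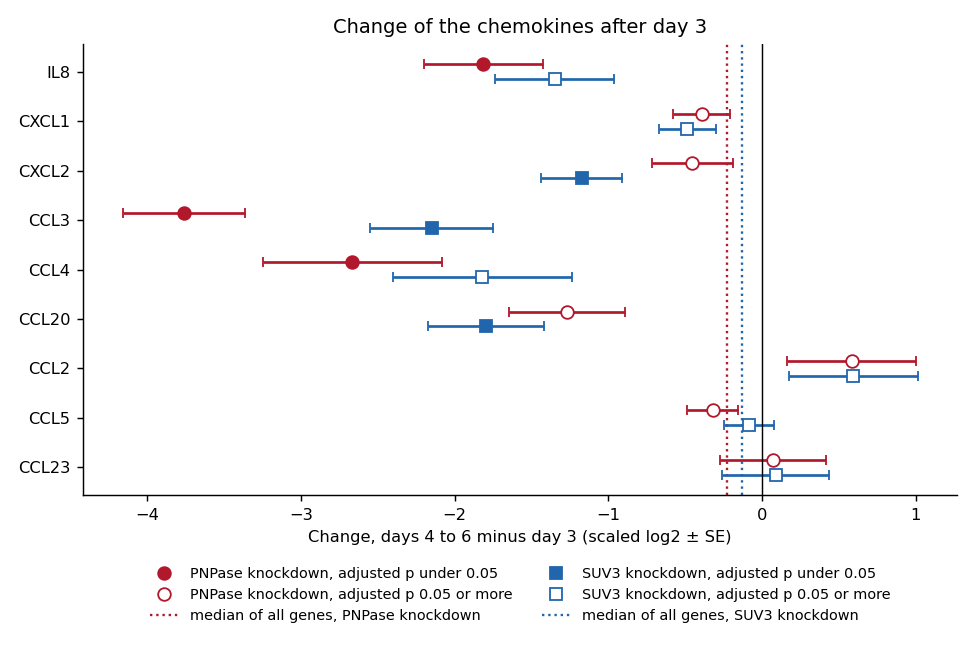
Scaled log2 change, days 4 to 6 minus day 3, of the 9 chemokines (± SE from limma over all 16 samples) after PNPase (upper, circles) and SUV3 knockdown (lower, squares); filled symbols passed the test and dotted lines give the median of all genes. CCL3 is farthest left in both, at -3.76 and -2.15, and CCL2 lies to the right of 0 in both.

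In counts, 3 of 9 chemokines passed after PNPase knockdown, all lower, where 7.58% of all 594 genes passed and 6.23% passed as lower. After SUV3 knockdown 3 of 9 passed, all lower, where 5.39% of all genes passed and 4.55% as lower. On the scaled log2 scale day 3 was the highest day in each of the 4 replicates for CCL3, CCL4, CCL20, CXCL2 and IL8, 5 of 9, against 11.1% of all genes. In the deposited values this did not hold for CXCL2 in PNPase replicates 545 and 1717, nor for CCL20 in PNPase replicate 1717. Every scaled day 3 value lay above every scaled later value for CCL3 and CCL4, 2 of 9, against 4.04% of all genes. The median change of the 9 was -0.45 after PNPase and -1.17 after SUV3 knockdown, against -0.23 and -0.13 over all genes. These panel medians were 0.34 and 0.17 without scaling. Relative to the panel median CCL3 changed by -3.53 after PNPase and -2.02 after SUV3 knockdown. The panel's calls split into 8 higher and 37 lower genes after PNPase knockdown with housekeeping scaling, and into 129 and 17 without. After SUV3 knockdown they split into 5 and 27, and into 6 and 11 without scaling. With no scaling, or scaling to the spiked controls or the total, CCL3 passed in both knockdowns and CCL4 and IL8 after PNPase knockdown, whereas CCL20 and CXCL2 no longer passed after SUV3 knockdown. CCL2 passed as higher after PNPase knockdown without scaling and with the spiked controls, which made 4 called members, 1 higher and 3 lower.

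The calls rested on few replicates. Without PNPase replicate 1717, CCL3 changed by -2.90 after PNPase knockdown, and without PNPase replicate 545 by -4.63. Without SUV3 replicate 1595 it changed by -1.87 after SUV3 knockdown, and without SUV3 replicate 1727 by -2.42. With 1 replicate left the spread comes from the other knockdown alone, so chemokines that passed are not counted for these fits. Without PNPase replicate 545 or PNPase replicate 1717, which enter only through the shared spread, 1 passed after SUV3 knockdown. Without day 4, day 5 or day 6, 0 chemokines passed after SUV3 knockdown by limma, where 11, 4 and 5 of all 594 genes did. In these fits 7, 5 and 5 of 9 had an unadjusted p below 0.05, against 117, 92 and 86 of 594 genes. Without day 5 or day 6, 1 chemokine passed after PNPase knockdown, where 13 genes did each time. The difference between the knockdowns in this change was tested directly, a test added after the values were seen. Limma called 0 of 9 chemokines and 0% of all genes, and 7.24% of genes had an unadjusted p below 0.05. CCL3 was the member with an unadjusted p below 0.05, and it had a difference of -1.61 ± 0.57 (SE; limma adjusted p = 0.587), PNPase minus SUV3. CXCL2 followed at 0.72 ± 0.37 (SE; limma adjusted p = 0.687). A change that differs between the knockdowns was therefore not shown for any member.

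A line on day, in place of a step after day 3, gave fewer calls. With limma 0 of 9 chemokines passed after PNPase knockdown, where 0.168% of genes did, and 3 had an unadjusted p below 0.05 against 22.1% of genes. After SUV3 knockdown 0 of 9 passed, where 1.68% of genes did, and 4 had an unadjusted p below 0.05 against 14.1% of genes. The adjusted p of CCL3 and CCL4 after PNPase knockdown was 0.0638 for each and that of IL8 was 0.0617. After SUV3 knockdown IL8 had a slope of -0.46 ± 0.16 (SE) per day and CXCL2 of -0.34 ± 0.12 (SE). Without day 3 the slope of CXCL2 was 0.039 per day. The difference of the slopes had 0 called chemokines and 0 with an unadjusted p below 0.05 by limma, against 6.57% of genes with an unadjusted p below 0.05.

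The chemokines were then compared between the knockdowns over all days. All 9 had lower mean scaled log2 values after PNPase than after SUV3 knockdown, as did 68.4% of all genes, and none passed the test. Without PNPase replicate 1717, 5 of 9 were lower, and without SUV3 replicate 1727, which had the highest mean of the 4 replicates for each of the 9, 6 were. The differences largest in size were those of CXCL2, CCL20 and IL8. CXCL2 averaged 5.24 ± 0.03 after PNPase and 6.22 ± 0.50 after SUV3 knockdown (SD, n = 2 each), 1.97-fold lower after PNPase knockdown. On the scaled log2 scale both PNPase replicates lay below both SUV3 replicates on each of the 4 days. The difference was -0.98 ± 0.30 (SE; limma adjusted p = 0.666), and -0.63 without SUV3 replicate 1727. CCL20 averaged 3.00 ± 0.04 after PNPase and 4.10 ± 0.77 after SUV3 knockdown (SD, n = 2 each), with 1 of 8 and 4 of 8 values above the negative controls, too few for a fold. IL8 averaged 10.20 ± 0.34 after PNPase and 11.25 ± 1.28 after SUV3 knockdown (SD, n = 2 each), with a difference of -1.04 ± 0.62 (SE). With SUV3 replicate 1727 left out the IL8 difference came to -0.14, and with 1595 left out to -1.95. The replicate means of IL8 were 10.44 and 9.96 after PNPase and 10.34 and 12.15 after SUV3 knockdown, so the ranges overlapped and SUV3 replicate 1727 alone was high.

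Limma called 0 of 9 chemokines and 0% of genes, and 2 of 9, CXCL2 and CCL20, had an unadjusted p below 0.05 against 6.4% of genes. The replicate means did not overlap for these 2 members, where they did not for 38.4% of genes. With 2 replicates against 2 an exact permutation test of a single value cannot go below p = 0.333. Without scaling 5 of 9 chemokines were lower after PNPase knockdown, against 32.7% of genes. The spiked positive controls were higher in every PNPase than in every SUV3 sample, so a technical difference between these samples and the knockdowns cannot be told apart. The summed scaled value of the 4 measured markers of the line was 55.4 to 142 in PNPase samples and 140 to 321 in SUV3 samples. Of the 4, HLA-DRA lay above the negative control limit in all 16 samples, CD14 in 13, ITGAM in 14 and CSF1R in 6. HLA-DRA had the highest mean deposited value, 97.6, against 28.8 for CD14, 21.8 for ITGAM and 11.8 for CSF1R. The ranges of the sum barely meet, so the sum moved with the knockdowns, and its part in the chemokine differences was not tested.

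**Figure D3:**
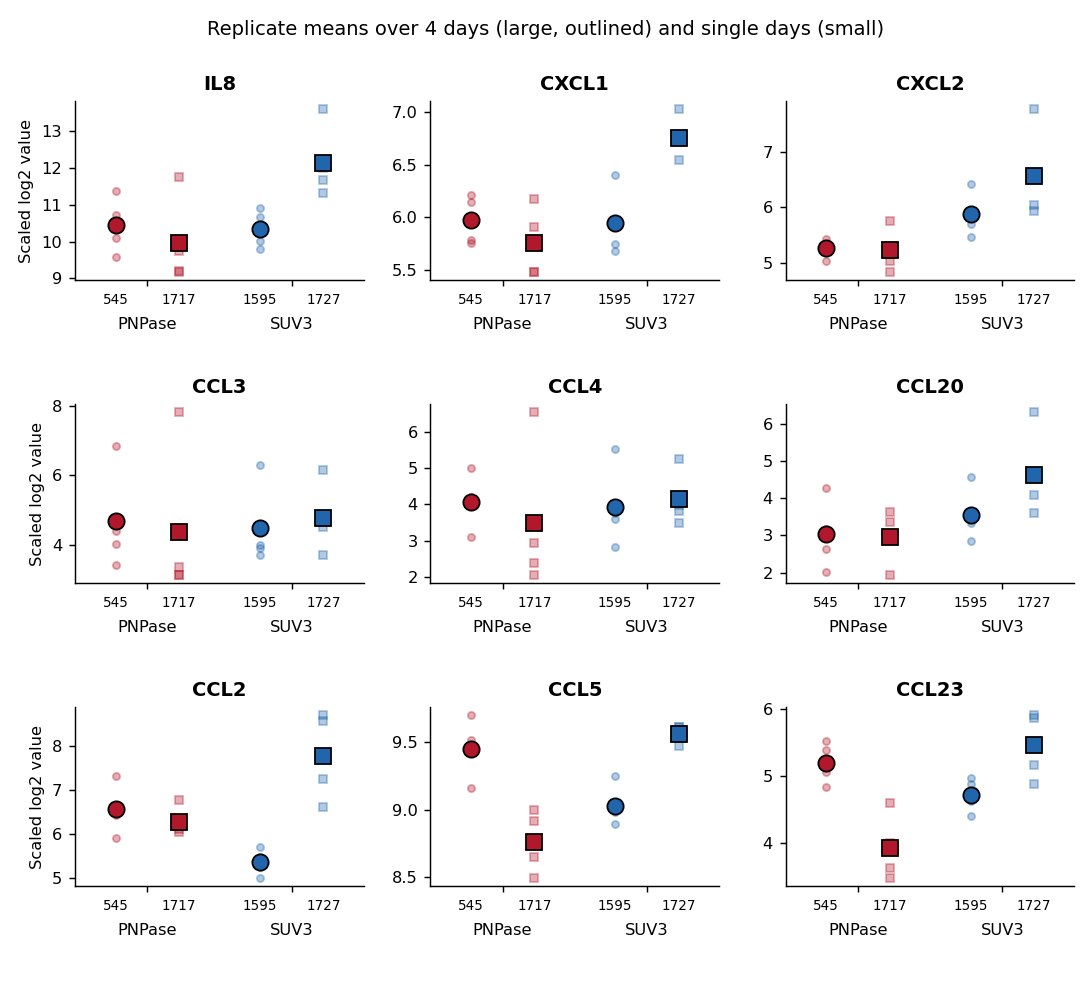
Scaled log2 values of the 9 chemokines by replicate, PNPase knockdown left and SUV3 knockdown right, with single days as small symbols and the mean over 4 days as a large outlined one; each panel has its own axis. The means of CXCL2 and CCL20 do not overlap between the knockdowns, SUV3 replicate 1727 has the highest mean for all 9 chemokines, and CCL5 and CCL23 are higher in replicates 545 and 1727.

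Much of the variation lay between replicates of the same knockdown. CCL5 had a mean scaled log2 value of 9.45 and 8.76 in PNPase replicates 545 and 1717 and of 9.03 and 9.56 in SUV3 replicates 1595 and 1727. CCL23 had 5.20 and 3.93 after PNPase and 4.72 and 5.45 after SUV3 knockdown, in the same replicate order. For both, 1 replicate of each knockdown was high, 545 and 1727, and the other low. CCL2 had 6.56 and 6.28 after PNPase and 5.36 and 7.77 after SUV3 knockdown, so that the SUV3 replicates lay on either side of the PNPase ones. CXCL1 had 5.97 and 5.76 after PNPase and 5.95 and 6.75 after SUV3 knockdown.

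The genes whose scaled log2 values ran most like those of each chemokine over the 16 samples were taken from 353 genes above the negative controls. These correlations describe samples that share replicates and a scaling factor. CCL2 ran most like CEBPB, a transcription factor of myeloid cells, at a Pearson correlation of 0.98, then ITGB1 at 0.90 and LCP2 at 0.87. CEBPB, like CCL2, had its highest deposited values in SUV3 replicate 1727 on days 5 and 6, at 1210 and 1344. CCL5 ran most like CD244 at 0.95, S100A8 at 0.90 and PTPN22 at 0.90. The alarmin S100A8 had mean scaled values of 6469 and 1488 in PNPase replicates 545 and 1717 and of 1657 and 8544 in SUV3 replicates 1595 and 1727, high and low in the same replicates as CCL5. CXCL1 ran most like IFI35 at 0.93, B2M at 0.91 and LILRB2 at 0.91, and CXCL2 like IFIH1 at 0.88 and IL8 at 0.87. IL8 ran most like CD55 at 0.92, IL1R2 at 0.91 and CXCL1 at 0.90. For CD55 the correlation was 0.59 without scaling, and IL1R2 had deposited values down to 7. Among the chemokines themselves CCL3 and CCL4 had the highest correlation, 0.93, and CCL2 had -0.15 with CCL3.

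Genes around the chemokines were examined from lists chosen with earlier results of these data known. Of 10 measured other targets of NF-kappaB and the early response, 3 fell after day 3 in PNPase knockdown and 4 in SUV3 knockdown, with median changes of -0.75 and -1.36. Of all genes 6.23% passed as lower after PNPase and 4.55% after SUV3 knockdown. NFKBIA, the inhibitor that NF-kappaB itself induces, changed by -1.03 ± 0.15 (SE; limma adjusted p = 0.00596) after PNPase and by -1.55 ± 0.15 (SE; limma adjusted p = 0.00125) after SUV3 knockdown. Its deposited values on days 3 to 6 were 1682, 630, 556 and 604 in SUV3 replicate 1727, whose day 3 sample also held the highest IL8 and CXCL2. They were 903, 419, 454 and 501 in SUV3 replicate 1595 and 827, 450, 501 and 466 in PNPase replicate 545. In PNPase replicate 1717 they were 519, 486, 458 and 596, so before scaling day 3 was not the highest day there. The genes of these lists were examined with housekeeping scaling only. PTGS2, which encodes cyclooxygenase, changed by -1.75 ± 0.36 (SE) after PNPase and by -2.02 ± 0.36 (SE) after SUV3 knockdown, and both passed. EGR1 at -1.46 ± 0.28 (SE) and BCL3 at -1.26 ± 0.26 (SE) passed after SUV3 knockdown. Their changes after PNPase knockdown, -0.62 ± 0.28 (SE) and -0.84 ± 0.26 (SE), did not pass. ICAM1 passed after PNPase knockdown, with values around the negative controls. TNFAIP3, another feedback inhibitor of NF-kappaB, changed by 0.067 ± 0.26 (SE) after PNPase and by -0.17 ± 0.26 (SE) after SUV3 knockdown, and IRAK3 by 0.14 ± 0.11 (SE) and 0.11 ± 0.11 (SE); none passed.

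Of 17 measured inducers and signalling genes upstream of chemokines, 1 rose and 2 fell after PNPase knockdown, and 1 rose and 0 fell after SUV3 knockdown. Of all genes 7.58% passed after PNPase and 5.39% after SUV3 knockdown, so the share after SUV3 knockdown is near that of the panel. The cytokine IL1B rose after PNPase knockdown by 1.35 ± 0.27 (SE; limma adjusted p = 0.0246). Its change after SUV3 knockdown, 0.84 ± 0.27 (SE; limma adjusted p = 0.125), did not pass. Its deposited values on days 3 to 6 were 48, 193, 150 and 140 in replicate 545 and 29, 153, 140 and 116 in replicate 1717, so it was lowest on the day on which CCL3 and IL8 were highest. The NF-kappaB subunit gene RELB fell by 0.87 ± 0.21 (SE) after PNPase knockdown. Its change after SUV3 knockdown, -0.71 ± 0.21 (SE), did not pass. IL17A fell too after PNPase knockdown, with deposited values of 6 to 17 around the negative controls. TLR2, a receptor for bacterial lipoproteins, rose after SUV3 knockdown by 0.56 ± 0.13 (SE). Its change after PNPase knockdown, 0.43 ± 0.13 (SE), did not pass. TNF changed by 0.78 ± 0.23 (SE) after PNPase and by 0.077 ± 0.23 (SE) after SUV3 knockdown, and its receptor gene TNFRSF1B by 0.017 ± 0.17 (SE) and 0.14 ± 0.17 (SE); none passed. Of 19 other chemokines 1 fell after PNPase knockdown, CXCL11, in no sample above the negative controls, and 0 changed after SUV3 knockdown.

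Among the receptors of the chemokines, CCR2 rose after day 3 in both knockdowns, where 1.35% of all genes passed as higher after PNPase and 0.842% after SUV3 knockdown. CCR2, the receptor of CCL2, had deposited values on days 3 to 6 of 151, 457, 545 and 730 in PNPase replicate 545 and of 141, 554, 526 and 484 in replicate 1717. They were 129, 428, 410 and 421 in SUV3 replicate 1595 and 95, 270, 235 and 272 in replicate 1727. Day 3 was thus the lowest day in every replicate. The change was 1.28 ± 0.18 (SE; limma adjusted p = 0.00506) after PNPase and 1.26 ± 0.18 (SE; limma adjusted p = 0.00875) after SUV3 knockdown. CCR1 changed by 0.80 ± 0.27 (SE) and 0.42 ± 0.27 (SE), and CXCR2, the receptor of IL8, CXCL1 and CXCL2, by -0.68 ± 0.25 (SE) and -0.50 ± 0.25 (SE), after PNPase and SUV3 knockdown in that order; none of these 4 passed.

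**Figure D4:**
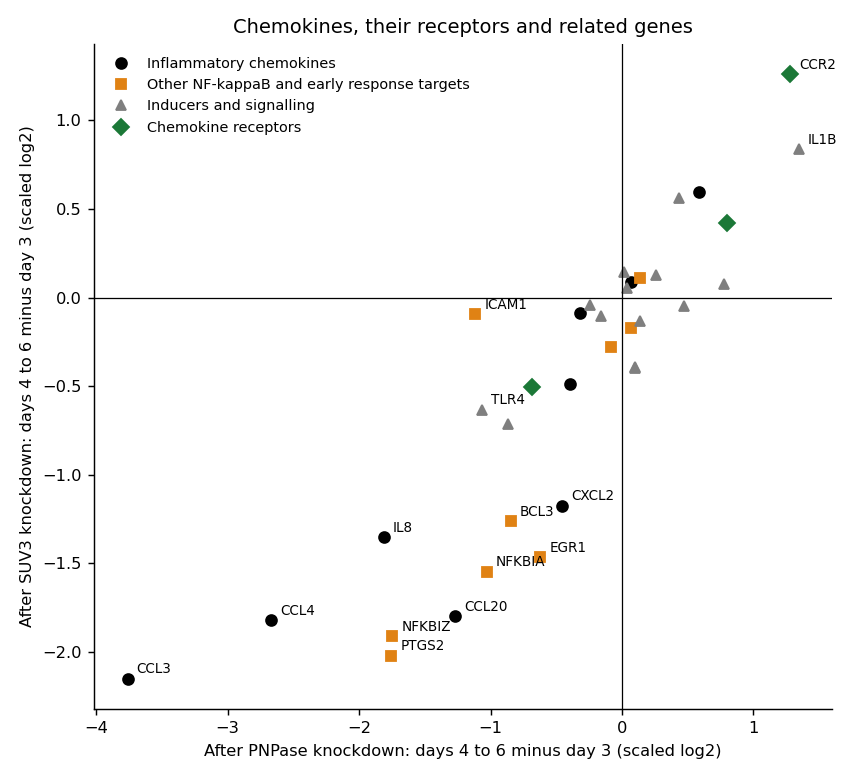
Scaled log2 change, days 4 to 6 minus day 3, after PNPase knockdown (horizontal) and after SUV3 knockdown (vertical) for the 9 chemokines and for the genes above the negative controls among the receptors named in the text (CCR1, CCR2 and CXCR2), the inducers and other NF-kappaB and early response targets; genes beyond a change of 1 in size are named. CCL3, CCL4, CCL20 and IL8 lie at the lower left with PTGS2 and NFKBIA, and CCR2 lies at the upper right.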

How the data were processed

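Transcripts were measured in 16 samples on the nCounter Human Immunology v2 panel. The deposited values are treated as a score, since no label or header says how the authors made them; only the name of 1 table says that unwanted variation was removed. All 594 genes had identical values in both deposited tables. The values were whole numbers, and the variance of 171 weak genes was 1.06 times that of Poisson counts, so weak values carry counting error. That, and 2 replicates per knockdown, limit the precision. The p-values of the knockdown comparison measure the spread between replicate means. In the day comparisons each replicate has its own level, so their p-values measure how far replicates differ in their changes over days. For the lines on day, departures of single days from the line also enter.

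Samples were divided by the geometric mean of 15 housekeeping genes, centred over samples, and log2(value + 1) was taken. Tests used limma 3.58.1 in R 4.3.3 across all 594 genes and adjusted p below 0.05 (Benjamini-Hochberg) was called. Knockdowns were compared on replicate means over days, 2 against 2. Days were compared with the replicate as a block, since the design text takes the 4 days from each replicate. As a check, the correlation of same-numbered samples' deviations across pairs of days was 0.04 to 0.67 in PNPase cells, 0.23 to 0.60 in SUV3 cells. The fits were also run on simulated data with known changes. These were drawn without differences between replicates, so they cannot show how the fits handle such differences. Upstream sequences and current symbols came from RefSeq tables of GRCh38.p14. The members, gene lists and the contrast against day 3 were chosen with earlier results of these data known. All 9 members were named, with 3 like genes for each member above the limit in all samples, and from each list the called genes and the 3 with the highest mean; some of these genes, and counts that hold them, are not reported here. Alternatives changed the scaling, the pseudocount (10), the background, the filter, the block, the replicates and the days.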

Additional observations from a re-analysis of the deposited data

How the results depend on the processing

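The count of 119 chemokine values above the negative controls stayed within 1.5 times under the other limits. With a limit of the mean plus 3 SD, however, no CCL3 or CCL4 value on day 6 passed. Over all days, PNPase against SUV3, 0 chemokines passed, and 1 with no replicate block. For the change per day after PNPase knockdown 0 passed, against 3 without scaling, 3 scaled to the spiked controls, 3 among genes above the negative controls and 2 without day 4. For days 4 to 6 minus day 3 after PNPase knockdown 3 passed, against 1 without day 5, 1 without day 6 and 2 without either SUV3 replicate. After SUV3 knockdown 3 passed, against 1 without scaling, 1 scaled to the spiked controls, 1 scaled to the total, 5 with a pseudocount of 10, 1 with the negative controls subtracted, 1 with no replicate block, 0 to 1 without each replicate and 0 without day 4, day 5 or day 6. The replicate block changed no other count by more than 1.5 times. For the difference between the knockdowns in the change per day, and in days 4 to 6 minus day 3, 0 passed in each alternative run.

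Of the values, CCL5 after PNPase knockdown turned to 0.29 without scaling and 0.38 scaled to the spiked controls. After SUV3 knockdown it turned to 0.22, 0.16 and, scaled to the total, 0.10, and it ranged from -0.29 without SUV3 replicate 1727 to 0.12 without SUV3 replicate 1595. After PNPase knockdown CXCL1 turned to 0.21 without scaling and 0.30 scaled to the spiked controls, and CXCL2 to 0.14 and 0.23. CCL23 ranged from -0.25 without PNPase replicate 1717 to 0.39 without PNPase replicate 545 and turned to -0.052 without day 6 after PNPase knockdown, and to -0.21 without SUV3 replicate 1727 and -0.078 without day 5 after SUV3 knockdown. The slope of CXCL2 after SUV3 knockdown turned to 0.039 without day 3. Fewer days or replicates leave fewer degrees of freedom; the cause of the other shifts was not tested. Values near 12.9 limit CCL3, CCL4 and CCL20 on later days.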
